A study of Gallus gallus with 6 samples.

Results

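The regions described here lie just downstream of transcription starts on the large chromosomes of the chicken, in tables of histone H3 lysine 4 (H3K4) methylation. They were chosen from 3 deposited tables of regions by position alone: chromosomes 1 to 10, a width under 1000 bp, and a region centre 0 to 1000 bp downstream of the closest start. The rule took 2320 of the 15464 regions in all, 851 in the table of ESC against PGC, 1257 in ESC against SSC and 212 in PGC against SSC. Their closest starts belonged to 810, 1160 and 206 genes, and to 1263 distinct genes over the tables. A region that is listed in more than 1 table counts once in each.

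The study used chromatin immunoprecipitation and sequencing on cells labelled as embryonic stem cells (ESC), as primordial germ cells (PGC), which are the embryonic precursors of eggs and sperm, and as spermatogonial stem cells (SSC), the self-renewing germ cells of the testis. Each population had 1 immunoprecipitated (IP) library and 1 input library, so no comparison has a replicate check, and every difference is between libraries. ESC were taken from stage X blastoderms and cultured for 24 h with 10% serum, 1000 IU/ml LIF, 10 ng/ml bFGF and 5 ng/ml SCF. PGC came from genital ridges at 4.5 d of incubation in the protocol, while their stage label reads 72 h (stage 27), and were purified by differential culture for 40 min in 10% serum. The source of SSC was the embryonic testis (18.5 d by the protocol, 18 d by the stage label), dissociated with collagenase and trypsin and kept in 10% serum. The labels describe no sorting step, and they give the antibody as one against both the di- and the trimethyl form, so H3K4 methylation here means either.

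H3K4 methylation is laid down by COMPASS-type methyltransferases around active and poised promoters. The start itself is usually free of nucleosomes, and the mark sits on the nucleosomes that flank it. On the downstream side these cover the 5′ untranslated region, the first exon and the beginning of the first intron.

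The libraries held 19.15 to 26.03 M reads (M for megareads). A listed region has an enrichment, the depth-scaled IP reads (RPM) over the input RPM of the same population with the authors' added 1 read, above 1 in both populations (0 regions at or below 1), and was called as a peak in at least 1 of them. A call in 1 population therefore favours a ratio to that side, and the enrichment of the higher population caps the ratio. Log2 ratios are those of the first population's enrichment over the second's, and their 95% intervals cover counting error only. The median log2 ratio of all listed regions was 0.90 in ESC against PGC, 0.31 in ESC against SSC and -0.42 in PGC against SSC, and the ratios below were not centred on it unless said.

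The deposited regions speak little to the identity of the cells. Of 7 SSC markers looked up at any distance, 1 (ITGB1) was listed, and it was called in ESC alone. Of 9 PGC markers, TFAP2C and CXCR4 were listed, called in ESC and in SSC respectively and never in PGC, and DDX4 and DAZL were not listed. Of 10 ESC markers, 3 were listed: LIN28B was called in ESC, KLF5 had regions called in ESC, in PGC and in SSC, and TFCP2L1 was called in PGC and in SSC and never in ESC. Of 33 genes of the somatic gonad, 13 were listed in regions called in SSC against PGC, among them WT1, NR5A1 and GATA4. In that comparison 3 were listed in regions called in PGC (FSHR, NR2F1 and NR2F2). Against ESC, GATA4 was called in PGC too, and PTCH1 had a region called in ESC. Of 30 fibroblast and mesenchymal genes, 8 had a region called in SSC alone against PGC and 4 a region called in PGC alone. COL5A1 and MEOX2 had regions of each kind, and COL1A2 also had a region called in both populations. Of 21 blood and endothelial genes, 3 (CD93, RUNX1 and TIE1) were called in PGC against SSC, and TAL1 in SSC against ESC. Over PGC against SSC, 2527 of all 4823 regions were called in SSC alone and 2279 in PGC alone. The share of all genes with such a region is not given here, so these counts show no excess of a gene group. The share of somatic cells in the libraries was not tested.

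Among regions within 1000 bp of a start, most lay on the downstream side. Downstream regions made up 79.2% (exact 95% interval 76.7 to 81.6) in ESC against PGC, where 223 lay upstream. They made up 79.2% (77.1 to 81.1) in ESC against SSC, with 331 upstream, and 67.3% (61.8 to 72.5) in PGC against SSC, with 103 upstream. The genes lay on both strands about equally, with 50.5% on the plus strand in ESC against PGC. By the authors' annotation of the region centre, the first intron held 65.9%, 66.3% and 61.8% of the regions in the 3 tables. The 5′ untranslated region held 9.64%, 9.31% and 9.43%, and the first exon 9.05%, 9.23% and 8.49%. The regions overlapped the gene of their closest start in 98.5%, 98.4% and 97.2% of cases.

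Downstream of starts, nearly every region of ESC against PGC was a peak of ESC. ESC alone of the pair was called at 840 of the 851 regions, PGC alone at 10 and both at 1, where 2758, 2027 and 16 of all 4801 listed regions were. In ESC against SSC, 1045 were called in ESC alone, 130 in SSC alone and 82 in both, beside 3205, 2238 and 397 of 5840 over the table. In PGC against SSC, 14 were called in PGC alone, 197 in SSC alone and 1 in both, beside 2279, 2527 and 17 of 4823. Farther than 1000 bp from a start, on the same chromosomes and under the same width limit, PGC alone was called at 1318 of 1923 regions of ESC against PGC and at 1561 of 2897 of PGC against SSC. PGC-called regions were thus frequent among those away from starts and few just downstream of them.

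**Figure D1:**
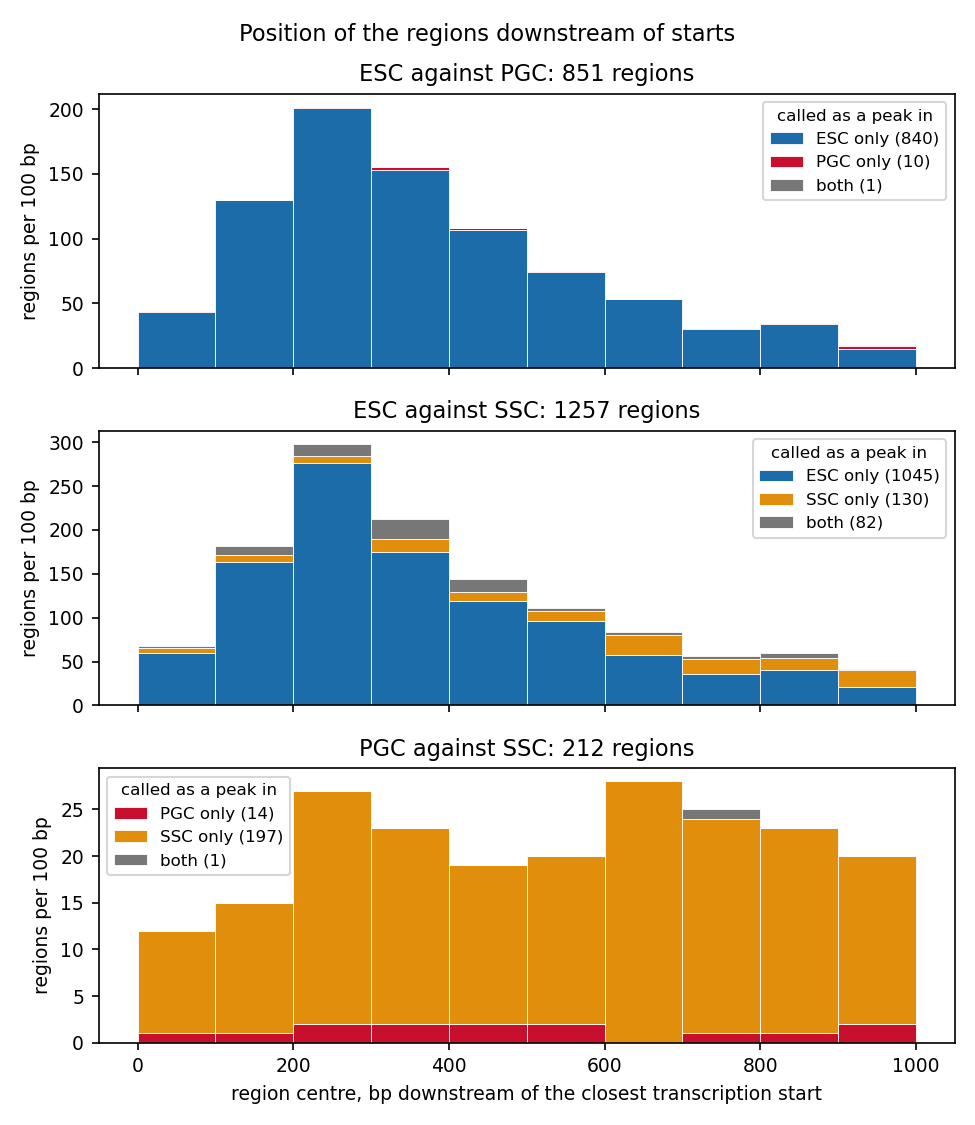
Number of regions per 100 bp of distance from the closest transcription start to the region centre, in the 3 tables, stacked by the population in which the authors called the peak. Regions called in ESC alone pile up at 200 to 300 bp, while those called in SSC alone are spread to the end of the window. Their medians are 313 and 633.5 bp in ESC against SSC.

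Regions called in ESC alone and in SSC alone of a pair did not sit at the same distance from the start. Centres of regions called in ESC alone lay at a median of 331.5 bp in ESC against PGC and 313 bp in ESC against SSC. Centres of regions called in SSC alone lay at 633.5 bp in ESC against SSC and 563 bp in PGC against SSC. Of the ESC-called centres, 75.5% (72.4 to 78.4) and 76.0% (73.3 to 78.5) lay within 500 bp of the start. Of the SSC-called centres this was 35.4% (27.2 to 44.2) and 44.7% (37.6 to 51.9). Regions called in both ESC and SSC lay at a median of 349.5 bp, close to the ESC-called ones.

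The summits that the authors gave within the regions showed the same order. Their medians were 326 and 311.5 bp for regions called in ESC alone, and 603 and 550 bp for regions called in SSC alone. Summits at 100 to 399 bp made up 51.6% and 54.3% of the ESC-called ones, and 22.5% and 27.8% of the SSC-called ones. In ESC against SSC, a region called in SSC alone by construction does not overlap an ESC peak, and the part of this in the position was not tested. In PGC against SSC, 88 of the 198 SSC-called regions (44.4%, 37.4 to 51.7) overlapped an ESC-called region of another table. SSC-called regions were also narrower, with a median width of 243.5 bp in ESC against SSC, against 362 bp for ESC-called ones, and the part of width in the position was not tested.

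For 74 genes, a region called in ESC alone of its pair and a region called in SSC alone of its pair lay downstream of the same start. Taking the region nearest the start for each, the SSC-called one was farther downstream in 53 genes and the ESC-called one in 21. The median offset was 184 bp, with quartiles of -11.8 and 427 bp. At most of these genes the ESC-called region was no site of ESC alone among the 3 populations. In 55 genes it overlapped a region called in both ESC and SSC in the table of that pair, and there the SSC-called one was farther in 36 and the median offset was 64 bp. In the other 19 genes it overlapped no SSC-called region, so the pair could not overlap; the SSC-called one was farther in 17, with a median offset of 462 bp.

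FTH1, the heavy chain of the iron store ferritin, is 1 of these 19, with its ESC-called region centred 185 bp from the start and its SSC-called one at 883 bp. MAMLD1 had the other order, with its ESC-called region at 843 bp and its SSC-called one at 319 bp. At NRP1, which encodes neuropilin, a co-receptor of semaphorins and VEGF, the ESC-called region was centred at 65 bp with 19 IP over 1 input reads in ESC. It overlapped a region called in both populations, and NRP1 had a further SSC-called region centred at 649 bp with 56 IP over 10 input reads in SSC. EIF5, an initiation factor of translation, likewise had a region at 117 bp that was called in both ESC and SSC against each other, and a further SSC-called region at 833 bp. These genes were chosen for their offsets and reads after the values were seen.

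**Figure D2:**
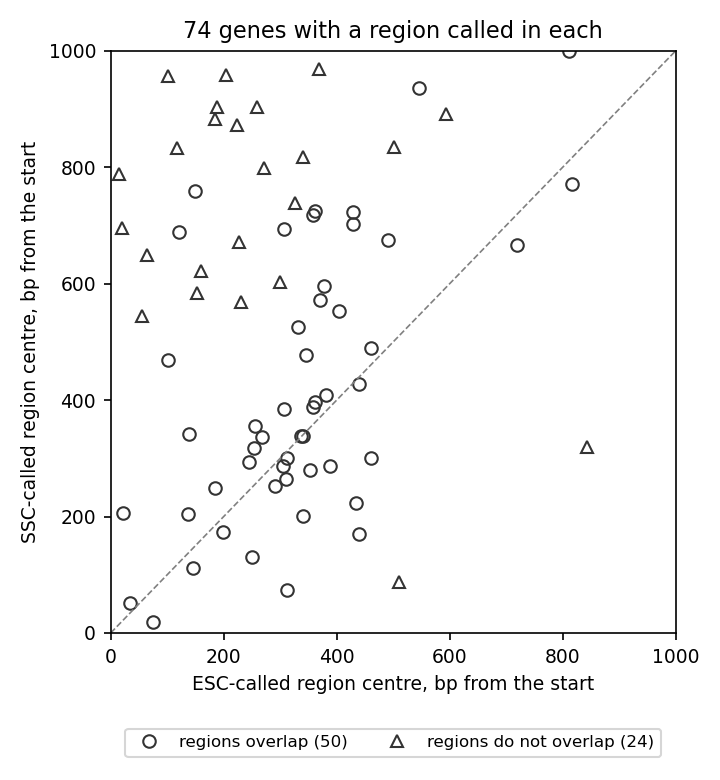
Distance from the start to the centre of the ESC-called region (x axis, bp) and of the SSC-called region (y axis, bp) for the 74 genes that have both; circles are pairs that overlap and triangles pairs that do not, and the dashed line marks equal distance. In 53 genes the point lies above the line; at 55 of the 74 the ESC-called region also overlapped a region called in both ESC and SSC.

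Just downstream of starts, H3K4 methylation enrichment was higher in ESC than in PGC at most listed regions. Of these 851 regions 840 were listed as peaks of ESC alone, which favours a ratio to that side. Differences in how well the single IP of each population worked were not tested. The median enrichment was 6.13 in ESC and 1.60 in PGC, and the median region held 35 IP over 4 input reads in ESC, against 7 over 5 in PGC. At least 2-fold higher in ESC were 706 of 851 regions (83.0%), where 48.4% of all regions of the table were, and 10 were at least 2-fold higher in PGC, where 23.5% of all were. The interval also excluded no difference at 328 of the 851 toward ESC and at 0 toward PGC. Over all regions of the table these shares were 23.7% and 2.10%. The median log2 ratio was 1.87, with quartiles of 1.23 and 2.46. Centred on the median of all listed regions, 414 passed 2-fold toward ESC and 26 toward PGC.

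The same held with less excess just upstream, where 153 of 223 regions passed 2-fold toward ESC and 17 toward PGC. Farther than 1000 bp from a start, 480 of 1923 passed it toward ESC and 745 toward PGC. The median ESC enrichment was 6.13 downstream, 4.93 upstream and 1.69 farther away. The PGC enrichment went the other way, with 1.60, 1.85 and 2.62. Calls, reads and width moved with these ratios: 98.8% of downstream regions were called in ESC, against 31.5% of those farther away. At the 42 genes with a region on each side of the start, the ESC enrichment was higher on the downstream side in 28, and the PGC enrichment in 20. In ESC against SSC there were 90 such genes, with the ESC enrichment higher downstream in 53 and the SSC enrichment in 45. In PGC against SSC there were 8, with the SSC enrichment higher downstream in 2 and the PGC enrichment in 4.

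Among all 851 regions, the largest ratio with at least 1 read in every library was at TCF7L2, a transcription factor of the Wnt pathway. Its region, on chromosome 6 from 26590173 to 26590844 (galGal4, base of counting not stated), has its centre in the 5′ untranslated region, 22 bp from the start. It held 104 IP over 2 input reads in ESC, against 17 over 20 in PGC. ESC enrichment was 26.8 and PGC enrichment 1.06, a log2 ratio of 4.66 (2.78 to 6.55). The unequal inputs, 2 reads in ESC and 20 in PGC, add to this ratio.

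PIM3, a serine/threonine kinase, had 56 IP over 1 input reads in ESC, against 8 over 10 in PGC in its first intron (chromosome 1, 18951025 to 18951667), a log2 ratio of 4.44 (2.04 to 6.83). SIX4, a homeobox transcription factor, had 98 over 3 reads in ESC, against 8 over 10 in PGC at 982 bp (chromosome 5, 54293335 to 54294173), a log2 ratio of 4.23 (2.31 to 6.15). In both genes PGC had fewer IP than input reads, and the smaller IP total together with the added 1 read put the enrichment at 1.01.

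Where the ESC input held 0 reads, the fold is an estimate computed with 3 in place of that input's count plus 1. The log2 intervals beside it keep the count plus 1. EIF2A, a factor of translation initiation, had 43 IP over 0 input reads in ESC, against 2 over 2 in PGC. It was 9.11-fold higher in ESC by this estimate, with a log2 interval of 1.10 to 8.45. RNGTT, the enzyme that caps mRNA, was 8.28-fold higher (1.14 to 8.13), and SLC25A36, a mitochondrial carrier, 5.59-fold (0.89 to 7.24).

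Among genes with a symbol, the most reads lay at EIF5, BTF3L4 and PRPF38B. EIF5 held 173 IP over 11 input reads in ESC, against 14 over 7 in PGC, a log2 ratio of 2.26 (0.77 to 3.76). BTF3L4 held 151 over 12 in ESC, against 13 over 7 in PGC, a log2 ratio of 2.05 (0.56 to 3.55). PRPF38B, a splicing factor, held 122 over 7 in ESC, against 21 over 15 in PGC, a log2 ratio of 2.80 (1.41 to 4.18). In each the ESC IP was the only library far above its input.

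Counts by gene group followed the excess over all genes. Of the 534 genes with a symbol and a downstream region in ESC against PGC, 444 passed 2-fold toward ESC and 6 toward PGC, with a median log2 ratio of 1.86. Among translation factors and tRNA ligases 11 of 13 were higher in ESC (median 2.22), and among splicing and mRNA processing genes 12 of 15 (median 1.90). HNRNPA2B1, an RNA-binding protein that packages pre-mRNA, had a log2 ratio of 3.52 (1.22 to 5.83). All 3 ribosomal protein genes were higher in ESC, with RPL21 at 2.17 (0.64 to 3.71) and RPL8 at 1.98 (0.60 to 3.35).

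Of the proteasome and ubiquitin genes 23 of 25 were higher in ESC (median 1.88). CUL4A and CUL4B, scaffolds of ubiquitin ligases, stood at 3.45 (1.10 to 5.80) and 3.54 (0.94 to 6.13). The 2 others, RNF144B and USP13, were at least 2-fold higher in PGC by the ratio, with intervals that include 0. USP13 had 0 input reads in PGC and 5 IP reads, and with 3 in place of that input's count plus 1 its log2 ratio was 0.27.

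Of the cell cycle genes 13 of 14 were higher in ESC (median 2.28). Without inputs their median was 1.82, beside 1.96 over all genes with a symbol. SMC3, a subunit of the cohesin ring, has its region in the first intron on chromosome 6 from 25533659 to 25534463. It held 105 IP over 5 input reads in ESC, against 12 over 14 in PGC, a log2 ratio of 3.66 (2.06 to 5.26). Of the vesicle traffic genes 23 of 25 were higher in ESC, with RAB21, a small GTPase of endosomes, at 3.84 (1.92 to 5.76). Of the mitochondrial genes 8 of 11 were, and of the ion channels and solute carriers 10 of 12.

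Chromatin regulators were higher in ESC in 8 of 13 genes (median 1.78). EPC1, a subunit of the NuA4 histone acetyltransferase, had a log2 ratio of 3.22 (0.53 to 5.91). HAT1, a histone acetyltransferase, had 0 input reads in ESC. With 3 in place of that input's count plus 1, it was 4.35-fold higher in ESC than in PGC and 5.79-fold higher than in SSC. Its log2 intervals with the count plus 1 were 0.45 to 6.96 and 1.02 to 7.22. KDM1B, a demethylase of H3K4, was called in PGC alone, with 11 IP over 2 input reads in ESC, against 19 over 2 in PGC. Its log2 ratio of -1.42 had an interval of -3.95 to 1.11, so a difference was not detectable at this depth.

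The 7 developmental transcription factors were all higher in ESC (median 2.90). Without inputs their median was 2.18, beside 1.96 over the 534 genes with a symbol, so much of their excess over other genes moved with the inputs. Each had an interval clear of 0, beside 205 of the 534 genes with a symbol. All 7 were called in ESC alone, as were 527 of the 534. Such intervals moved with width, at 207 of 268 regions of 500 to under 1000 bp and 28 of 291 of 200 to under 300 bp. The part of width, reads and inputs in the 7 genes was not tested. KLF5, a Krüppel-like factor of stem cells, has its region in the first intron on chromosome 1 from 155274954 to 155275783. It held 92 IP over 6 input reads in ESC, against 15 over 18 in PGC, a log2 ratio of 3.29 (1.83 to 4.76). Signalling genes had few members. SMAD6, an inhibitor of BMP signalling, stood at 2.30 (0.94 to 3.65), DUSP10, a phosphatase of MAP kinases, at 3.07 (0.96 to 5.17), and MAMLD1, of the Notch list, at 3.62 (0.94 to 6.30).

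The 10 regions called in PGC alone were thinly covered except 1. That region, closest to a 5_8S_rRNA gene, held 117 IP over 74 input reads in PGC, against 21 over 15 in ESC. Ribosomal RNA genes exist in many copies, so its reads are of uncertain origin. The other 9 held 13 to 21 IP reads in PGC.

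**Figure D3:**
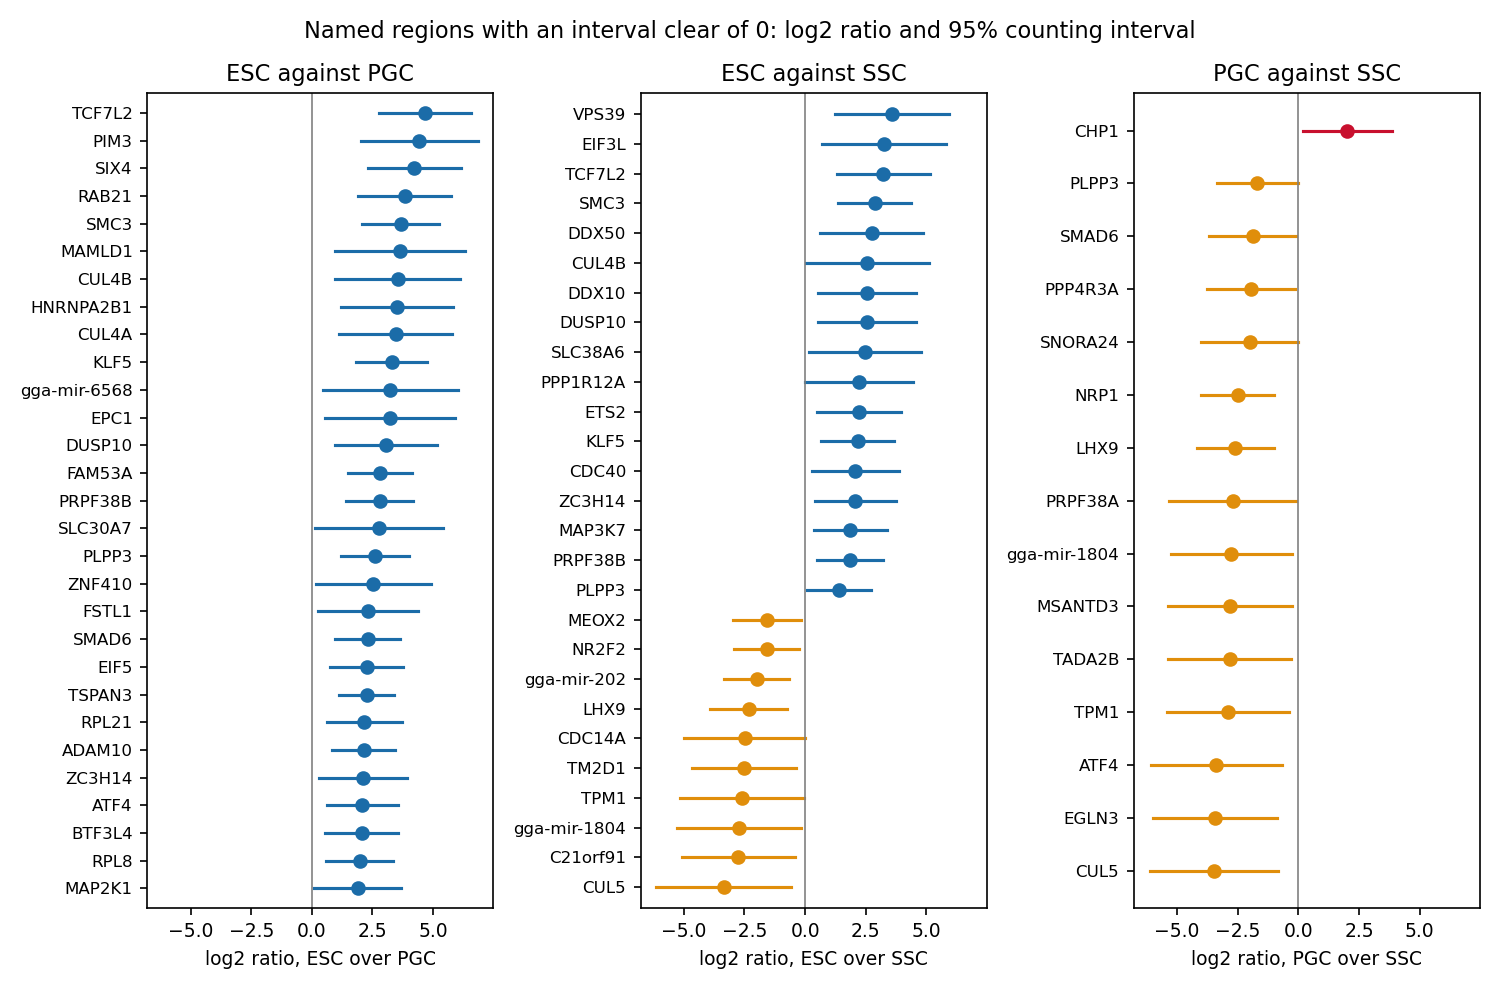
Log2 ratio of enrichments (x axis) with its 95% counting interval (bars) at the named downstream regions whose interval excludes 0, for the 3 tables; regions with an input of 0 reads are left out, and colours mark the higher population (ESC blue, PGC red, SSC orange). In ESC against PGC all points lie on the ESC side, up to 4.66 at TCF7L2, and in PGC against SSC CHP1 alone lies on the PGC side.

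Against SSC, ESC enrichment was again higher at most downstream regions, by less, and 1045 of the 1257 were called in ESC alone. The median enrichment was 5.65 in ESC and 3.09 in SSC, on 32 IP over 4 input reads in ESC, against 11 over 4 in SSC. At least 2-fold higher in ESC were 631 of 1257 regions (50.2%, where 35.1% of all regions were). At least 2-fold higher in SSC were 94, where 26.3% of all regions were. With the interval also excluding no difference, 170 of 1257 were higher in ESC and 20 in SSC. Over all regions of the table these shares were 12.0% and 4.83%. The median log2 ratio was 1.01, and 464 passed 2-fold toward ESC and 131 toward SSC once centred. Just upstream, 146 of 331 passed it toward ESC and 51 toward SSC, and farther away 399 and 847 of 2001.

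The ratio fell off along the window in ESC against SSC. The median log2 ratio in successive bins of 200 bp from the start was 1.18, 1.05, 1.06, 0.45 and 0.40. Within regions called in ESC alone it was 1.27, 1.16, 1.22, 0.98 and 1.12, so the drop moved with the larger number of SSC-called regions in the last 400 bp. In ESC against PGC the medians were 2.04, 1.90, 1.89, 1.70 and 1.51.

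**Figure D4:**
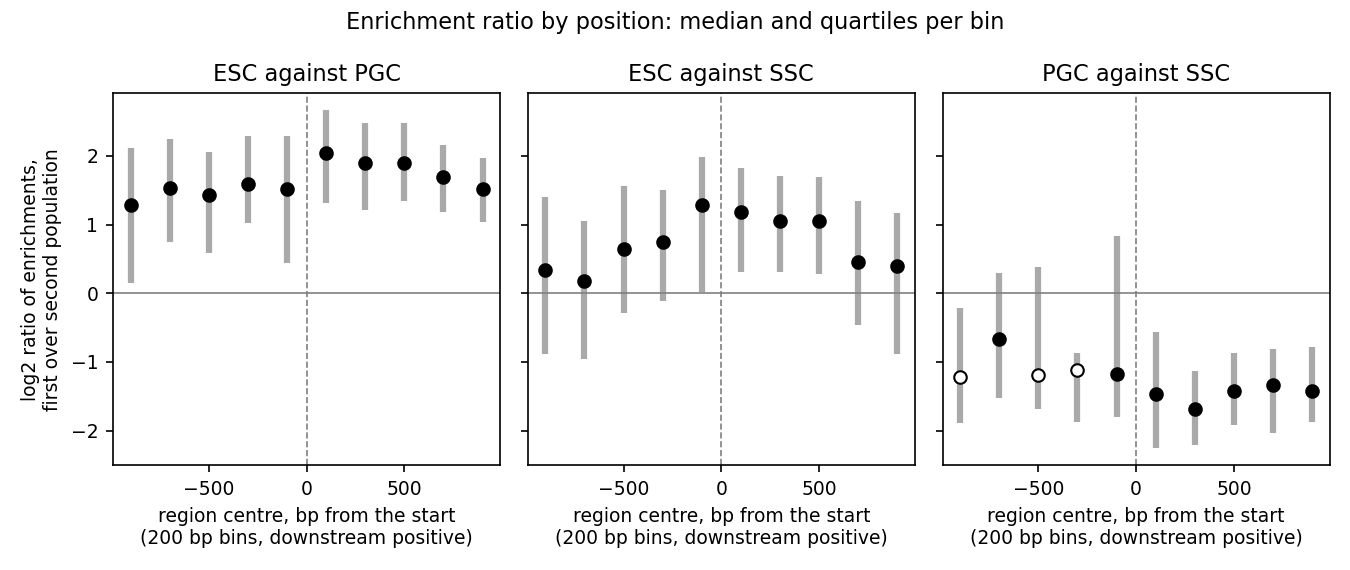
Median log2 ratio of enrichments (points) and quartiles (bars) in bins of 200 bp from the closest start, upstream negative and downstream positive, for the 3 tables; open points are bins of fewer than 20 regions. In ESC against SSC the downstream medians drop from 1.18 in the first bin to 0.40 in the last.

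Toward ESC, VPS39, a subunit of the HOPS tethering complex of lysosomes, held 45 IP over 1 input reads in ESC, against 12 over 10 in SSC, a log2 ratio of 3.59 (1.24 to 5.94). SMC3 stood at 2.87 (1.37 to 4.37), TCF7L2 at 3.23 (1.33 to 5.14) and EIF3L, a subunit of initiation factor 3, at 3.26 (0.71 to 5.82). KLF5 held 92 over 6 reads in ESC, against 21 over 11 in SSC, a log2 ratio of 2.17 (0.67 to 3.67). SMC3, TCF7L2 and KLF5 were among the genes named on the ESC side against PGC as well. Both comparisons use the same ESC libraries and the same ESC reads at these genes, so this is no independent result.

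Toward SSC, CUL5, another cullin scaffold, held 5 IP over 3 input reads in ESC, against 18 over 1 in SSC, a log2 ratio of -3.35 (-6.14 to -0.57). TPM1, which encodes tropomyosin, held 11 over 5 reads in ESC, against 14 over 1 in SSC, a log2 ratio of -2.60 (-5.15 to -0.04). C21orf91, gga-mir-1804, TM2D1 and CDC14A lay between -2.75 and -2.50. In these 6 regions the SSC input held 1 or 2 reads, and without inputs the log2 ratio of C21orf91 was -0.34.

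LHX9, a LIM homeobox factor of the early gonad, rested on more reads. Its region in the first exon, on chromosome 8 from 2278668 to 2279362 and 387 bp from the start, held 23 IP over 8 input reads in ESC, against 57 over 6 in SSC, a log2 ratio of -2.33 (-3.91 to -0.74). NR2F2, an orphan nuclear receptor with its region in the 5′ untranslated region (chromosome 10, 15328053 to 15328791), held 21 over 10 reads in ESC, against 51 over 13 in SSC, a log2 ratio of -1.58 (-2.93 to -0.24). CLDN11, a tight junction protein of Sertoli cells in mammals, stood at -1.10 (-4.11 to 1.91). All 3 members of the somatic gonad list were at least 2-fold higher in SSC, and 2 of them had an interval clear of 0. Over all 759 genes with a symbol these counts were 53 and 14. All 3 members were called in SSC alone, which favours a ratio to that side. Of the 130 regions called in SSC alone, 73 passed 2-fold toward SSC. The list holds 33 genes, and the 30 others had no downstream region in this table.

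Of the 3 fibroblast and mesenchymal genes, MEOX2, a homeobox factor, stood at -1.56 (-2.97 to -0.16) and COL1A2, a chain of collagen I, at -1.01 (-3.25 to 1.24), while FSTL1 stayed under 2-fold. The microRNA gga-mir-202 had a region 343 bp from its start, outside annotated genes, with 23 over 15 reads in ESC, against 40 over 10 in SSC, a log2 ratio of -2.00 (-3.33 to -0.68). The cell types that gave these reads were not tested.

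Over all 759 genes with a symbol in this table, 389 passed 2-fold toward ESC and 53 toward SSC, with a median log2 ratio of 1.03. Translation factors and tRNA ligases were higher in ESC in 11 of 16 genes (median 1.21) and in SSC in 1. Splicing genes were higher in ESC in 11 of 20, proteasome and ubiquitin genes in 15 of 29, cell cycle genes in 9 of 16 and chromatin regulators in 10 of 13. Developmental transcription factors were split, with 5 of 15 higher in ESC and 3 in SSC (median 0.72). The adhesion and matrix genes were split too, with 2 of 8 higher in ESC and 3 in SSC. EIF3J, MRPL47 and ITGB1 were at least 2-fold higher in SSC only through an SSC input of 0 reads, and with 3 in place of that input's count plus 1 their log2 ratios were 0.29, 0.19 and 0.43, to the side of ESC.

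Between PGC and SSC, downstream regions were few and nearly all on the SSC side, with 197 of the 212 called in SSC alone. The median enrichment was 1.51 in PGC and 4.12 in SSC, on 8 IP over 6 input reads in PGC, against 17 over 4 in SSC. At least 2-fold higher in SSC were 146 of 212 regions (68.9%, where 37.8% of all regions were). At least 2-fold higher in PGC were 6, where 21.2% of all regions were. With the interval also excluding no difference, 48 of 212 were higher in SSC and 1 in PGC. Over all regions of the table these shares were 9.58% and 1.80%. The median log2 ratio was -1.45, and centred counts were 114 and 8. Just upstream, 57 of 103 were higher in SSC and 11 in PGC, and farther away 989 and 680 of 2897.

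Among genes with a symbol other than the ribosomal RNA, the most reads lay at LHX9, with 14 IP over 10 input reads in PGC, against 57 over 6 in SSC, a log2 ratio of -2.61 (-4.20 to -1.01). NRP1 held 10 over 11 reads in PGC, against 56 over 10 in SSC, a log2 ratio of -2.50 with an interval clear of 0. SMAD6 held 11 over 7 reads in PGC, against 32 over 5 in SSC, a log2 ratio of -1.88 (-3.68 to -0.08). In these 3 genes the PGC IP held about as few reads as its input.

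CUL5 had the largest ratio, -3.47 (-6.10 to -0.85), from 5 IP over 6 input reads in PGC, against 18 over 1 in SSC. EGLN3, a prolyl hydroxylase of the hypoxia response, stood at -3.44 (-6.00 to -0.88), ATF4, a transcription factor of the stress response, at -3.38 (-6.08 to -0.69), and TADA2B, an adaptor of the SAGA complex, at -2.83 (-5.36 to -0.31). Each had 1 input read in SSC. Of 7 ribosomal protein genes 6 passed 2-fold toward SSC (median -2.00), beside 90 of 123 over all genes with a symbol (median -1.52). RPS7 stood at -2.81 (-5.74 to 0.12) and RPS3 at -2.13 (-4.44 to 0.17), and 1 of the 7 had an interval clear of 0. Among 7 developmental transcription factors 4 were higher in SSC and 0 in PGC.

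The 1 region higher in PGC with an interval clear of 0 was in the first intron of CHP1, a calcineurin-like calcium-binding protein, on chromosome 5 from 23820578 to 23820876. It held 21 IP over 3 input reads in PGC, against 18 over 13 in SSC, a log2 ratio of 2.02 (0.18 to 3.85). Without inputs it was 0.13, so the value rested on the inputs.

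The tables share libraries, so a region listed at the same coordinates in both ESC tables can be read in all 3 populations. This was so for 732 downstream regions called in ESC alone in both tables. Their median enrichment was 6.24 in ESC, 2.78 in SSC and 1.65 in PGC. Summed over the regions, ESC had 30494 IP over 3156 input reads, SSC 8491 and 3695, and PGC 5685 and 4016. Neither SSC nor PGC was called as a peak at these regions, and every listed region had an enrichment above 1 in each.

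SSC enrichment was above that of PGC in 560 of the 732 regions, beside 1698 of all 2247 regions called in ESC alone. The median log2 ratio of the 732 was 0.63 (quartiles 0.00 and 1.33). At least 2-fold higher in SSC were 277 (37.8%), where 35.8% of all regions called in ESC alone were. At least 2-fold higher in PGC were 27, where 2.94% of all regions called in ESC alone were. The order therefore held downstream of starts about as often as at all ESC-called regions. Without the inputs, SSC was above PGC in 620 of the 732, beside 1782 of the 2247.

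**Figure D5:**
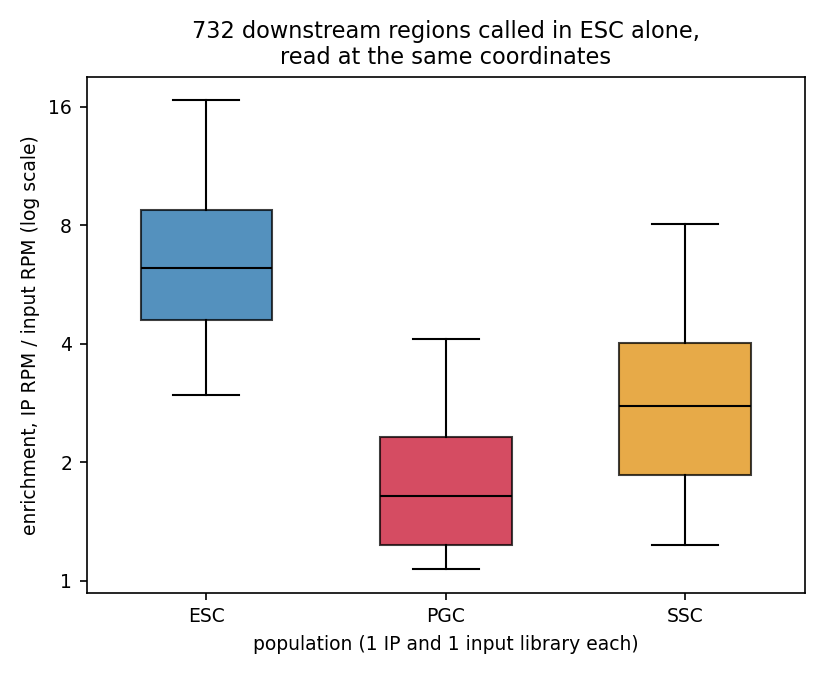
Enrichment (IP RPM over input RPM, log scale) in ESC, PGC and SSC at the 732 downstream regions called in ESC alone and listed at the same coordinates in both ESC tables; boxes give the median and quartiles and whiskers the 5th and 95th percentiles over regions. The medians are 6.24 in ESC, 1.65 in PGC and 2.78 in SSC.

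The regions with the largest SSC over PGC ratio here were at SIX4, with 98 IP over 3 input reads in ESC, 26 and 2 in SSC and 8 and 10 in PGC. Its log2 ratio of SSC over PGC was 3.46 (1.32 to 5.60). RLIM, a ubiquitin ligase, had 49 and 3 reads in ESC, 20 and 1 in SSC and 4 and 4 in PGC, a log2 ratio of 3.39 (0.64 to 6.15). TSPAN3, a tetraspanin, had 98 and 13 reads in ESC, 30 and 8 in SSC and 22 and 24 in PGC, a log2 ratio of 1.91 (0.56 to 3.25). RBM45, an RNA-binding protein, had 112 and 9, 27 and 20, and 15 and 16 reads in the same order, and SSC and PGC differed there by 0.51 (-0.77 to 1.78), within counting error.

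The reverse reading, at the 86 downstream regions called in SSC alone in both SSC tables, gave medians of 4.12 in SSC, 1.89 in ESC and 1.47 in PGC. ESC was above PGC in 60 of the 86, beside 748 of all 1322 such regions. At least 2-fold higher in ESC were 17, where 11.3% of all such regions were, and 2 in PGC, where 4.77% of all such regions were. At both sets PGC had the lowest median of the 3 populations. It also did so over all regions called in ESC alone (1.59) and, by little, over all called in SSC alone (1.41, beside 1.53 in ESC). Without the inputs, ESC was above PGC in 57 of the 86 downstream regions, and in 570 of all 1322. The median log2 ratio of those 1322 was then -0.10, so the order of ESC and PGC there rested on the inputs.

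Which regions were listed also differed. Of the 841 ESC-called downstream regions of ESC against PGC, 802 (95.4%, 93.7 to 96.7) overlapped a region listed in ESC against SSC. Of the 1127 of ESC against SSC, 796 (70.6%, 67.9 to 73.3) overlapped a region listed in ESC against PGC. Every listed region had an enrichment over 1 in each member of the pair, and the part of this in the unequal overlap was not tested. The PGC reads at ESC-called regions listed against SSC and not against PGC were not analysed here. By gene, 763 were in both ESC tables, 94.2% of those in ESC against PGC and 65.8% of those in ESC against SSC.

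A downstream region in all 3 tables was found at 57 genes. The 5 of them with the most IP reads were BTF3L4, FAM53A, ATF4, PRPF38B and PLPP3. At ATF4 the region called in both ESC and SSC held 114 IP over 11 input reads in ESC, against 41 over 3 in SSC, with enrichments of 7.35 and 13.0 and a log2 ratio of -0.82 (-2.53 to 0.89). Without inputs that ratio was 1.01, to the side of ESC. PRPF38B held 36 and 13 reads in SSC and a log2 ratio of ESC over SSC of 1.85 (0.49 to 3.21). PLPP3, a lipid phosphatase, stood at 2.60 (1.19 to 4.02) in ESC against PGC, 1.39 (0.06 to 2.72) in ESC against SSC and -1.69 (-3.35 to -0.03) in PGC against SSC.

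Wider regions had higher ESC enrichment and larger ratios. In ESC against PGC, regions of 200 to under 300, 300 to under 500 and 500 to under 1000 bp had median ESC enrichments of 5.18, 6.13 and 7.04 and median log2 ratios of 1.51, 1.83 and 2.15. Their median ESC IP reads were 22, 35 and 67, so width moved with depth. The regions were spread over the chromosomes. They made up 25.9% (chromosome 1) to 31.6% (chromosome 8) of all regions under 1000 bp wide listed there in ESC against PGC.

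By the gene ontology terms in the deposited tables, genes with a downstream region carried several terms more often than genes of regions farther away. RNA binding and translation were among them. RNA binding was given to 97 of 578 annotated genes (16.8%, 13.8 to 20.1) in ESC against PGC, and to 54 of 923 (5.85%, 4.43 to 7.57) for regions farther than 1000 bp. Translation was given to 3.98% (2.54 to 5.91) and 0.758% (0.305 to 1.56). Broader terms were more frequent too, with nucleus at 31.7% and 23.6% and ATP binding at 12.3% and 7.91%. Mitochondrion was given to 9.34% and 5.53%, and nucleolus to 6.23% and 2.06%. Integral component of membrane was given less often, to 14.2% (11.4 to 17.3) and 23.6% (20.9 to 26.5). Just upstream, RNA binding was at 12.3%. In ESC against SSC RNA binding was at 14.6% upstream and 14.8% downstream, so about as frequent on both sides, and at 7.29% farther away. In PGC against SSC it was at 10.0% upstream, 14.2% downstream and 5.07% farther away. ATP binding there was at 18.6% upstream, 7.80% downstream and 8.89% farther away. Genes near starts and genes near distant regions differ in how they were chosen, and the intervals treat genes as independent draws.

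At the edges of the rule, the centre just inside 1000 bp in ESC against PGC was that of FUBP1 at 996 bp, called in ESC with 74 IP over 16 input reads in ESC, against 17 over 16 in PGC. The one just outside, at 1006 bp, was called in PGC with 11 over 5 reads in ESC, against 18 over 6 in PGC. On the side of the start, CACYBP lay just outside at -2 bp, with 23 over 4 reads in ESC, against 6 over 4 in PGC. The width limit left out KIF5B, a kinesin, at 1024 bp with 104 over 10 reads in ESC, against 19 over 23 in PGC, and 85 regions of the window in this table in all.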

How the data were processed

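Per the submitters' processing notes, the tools were CASAVA 1.8, FastQC, BWA and MACS2, and the authors' build was galGal4; other versions, settings and the step that counted reads are not given in the sources used here. The deposited tables hold 1 row per region and overlapped gene; 90, 152 and 55 repeats were collapsed. Per the file headers, the authors deposited read counts and RPM (the count plus 1 over the library total in megareads) for each IP and input library. The authors' fold enrichment divides IP RPM by input RPM, and the deposited log2 ratio compares the enrichments of a pair of populations. It was recomputed to within 5.33e-15. Distance, as the authors gave it, equals the offset of the region centre from the closest start; positive is downstream.

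Python 3.11.15 with pandas 2.3.3, NumPy 2.4.6, SciPy 1.17.1 and Matplotlib 3.10.9 was used. With 1 IP and 1 input library per population there was no test. A region counted as higher at a 2-fold ratio. The 95% intervals were delta-method intervals from the 4 counts. They were tried on simulated counts with counting error alone and without peak calls or the filter on enrichment. Their coverage at the listed regions was therefore not tested. Exact Clopper-Pearson intervals were given for shares. These treat regions or genes as independent draws, although they share libraries, and do not cover the counting error of reads. Neither kind covers variation between libraries. For inputs of 0 reads, the count plus 1 was also replaced by a floor of 3 counts. Whether the libraries came from separate cultures or pooled animals is not stated.

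Members and the 24 gene lists were chosen with earlier results of these data known. Lists were matched by symbol families in the files. Named genes were, per table and among genes with a symbol in the files, the 6 largest ratios in each direction with an interval excluding 0, the 3 regions with the most IP reads, up to 2 genes per list and direction, the 5 genes in all 3 tables with the most reads, and the regions at the edges of the rule. Examples of regions in 3 populations and of offsets between regions were chosen after their values were seen. The planned motif search was not run, since no promoter sequence was used here. Lists with no member downstream in any table were histone genes and blood and endothelial genes. Alternatives were another pseudocount, no inputs, centring, a read minimum, other windows and widths, and stricter calls.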

Additional observations from a re-analysis of the deposited data

How the results depend on the processing

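No paired analysis was possible because each population has 1 IP and 1 input library, and no library could be left out. Each setting below changes 1 choice, and a smaller set of regions or a stricter threshold lowers counts by construction. Regions higher in ESC than in PGC numbered 414 after centring, 238 with at least 10 IP reads in both populations, 328 with an interval excluding 0 and 379 at 4-fold. Those higher in PGC numbered 5 with a pseudocount of 5 reads, without inputs, with the read minimum or in a window of 500 bp, 26 after centring, and 0 with the interval or at 4-fold; the median log2 ratio was 1.25 with the pseudocount, 0.97 centred and 1.97 with no width limit. Regions higher in ESC than in SSC numbered 392 with the pseudocount, 343 with the read minimum, 170 with the interval and 206 at 4-fold. Those higher in SSC numbered 42 without inputs, 57 with the read minimum, 43 within 500 bp, 20 with the interval and 18 at 4-fold; the median was 0.67 with the pseudocount, 1.18 without inputs, 0.70 centred, 0.92 with the read minimum and 1.10 within 500 bp. In PGC against SSC, 1 region was higher in PGC with the read minimum, with the interval and at 4-fold. Those higher in SSC numbered 42 with the read minimum, 68 within 500 bp, 48 with the interval and 55 at 4-fold; the median was -1.05 with the pseudocount, -1.15 without inputs, -1.03 centred and -1.16 with the read minimum. No setting listed here turned the direction of a median. Of 139 named regions, the ratio turned sign in 5 without inputs: USP13 (2.18, ESC over PGC), EIF3J (0.96), MRPL47 (0.85), ITGB1 (1.09) and ATF4 (1.01, ESC over SSC). A floor of 3 in place of the count plus 1 of inputs of 0 reads, a setting chosen after seeing the data, turned the first 4, to 0.27, 0.29, 0.19 and 0.43, which an input of 0 reads had set. BTF3L4 in PGC against SSC turned to 0.053 when centred. The motif search was not run. With a median of 4 to 6 input reads per downstream region, ratios whose intervals include 0 are not detectable at this depth.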
